A study of Mus musculus with 26 samples.

Results

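The lipoxygenase genes Alox12, Alox15, Alox8, Alox12b and Aloxe3 were followed in mouse endothelial cells exposed to interferon gamma (IFNγ) in vivo. Members were all probe sets whose only gene symbol in the array's annotation is one of these 5 symbols. This gave 79 of the 53857 probe sets with a single symbol, namely 16 for Alox12, 16 for Alox15, 14 for Alox8, 18 for Alox12b and 15 for Aloxe3, and 5 of 5109 genes that such probe sets cover. Of the 5109, 1716 lay on chromosome 11, 1292 on 1, 1074 on 10, 789 on 12 and 210 on 13. No other named chromosome held more than 4. Below, all genes and all probe sets mean those among the deposited values, from which most genes of other chromosomes were absent. Alox12 was selected on measured values, its change in the endothelium of J558L tumours after 24 h of IFNγ being known when the members were named, and the other 4 are genes of its family, so the values of all members in that contrast are a description without a test. Outside that contrast, Alox12 rose in kidney endothelium of J558L-bearing mice, by 1.68 ± 0.34 on the log2 scale (change ± standard error), and its changes in MCA313 and 16.113 tumours did not pass the test. None of the other 4 genes passed in any of those comparisons.

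Lipoxygenases are iron-containing enzymes that insert molecular oxygen into polyunsaturated fatty acids such as arachidonic acid, giving hydroperoxides that are reduced to hydroxy acids or turned into hepoxilins and other signalling lipids. Alox12 encodes the platelet-type 12-lipoxygenase, the enzyme by which activated platelets make 12-HETE. Mouse Alox15 encodes the leukocyte-type 12/15-lipoxygenase of macrophages and eosinophils, and Alox8 the mouse 8-lipoxygenase, whose human counterpart is ALOX15B. Alox12b and Aloxe3 act one after the other in the epidermis, where they oxidise the linoleate of skin ceramides and are needed for the water barrier. By the RefSeq annotation (assembly GRCm38.p6) all 5 lie on chromosome 11 in 2 clusters. Aloxe3, Alox12b and Alox8 follow each other without another protein-coding gene, 64 protein-coding genes follow, and then come Alox12, the epidermal-type gene Alox12e and Alox15.

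CD31+/CD146+ cells were sorted, between 5000 and 15000 per sample, from digested tissue of female mice carrying 1 of 3 tumours, and their amplified RNA was measured on 26 arrays in 9 groups. MCA313 tumours, whose cells can be switched on to release IFNγ, grew in transgenic PIG-Pdgfb-Cre-IFNγ-del mice 4 to 6 months old, in which the IFNγ receptor is present on endothelial cells alone because Cre is driven by Pdgfb. Their endothelium was sampled without induction (0 h, 3 arrays), and after 24 h (2 arrays) and 48 h (2 arrays) of induction. J558L tumours, from a mouse plasmacytoma line that can be switched on to release an IFNγ-GFP fusion, grew in Rag-/- mice of 4 to 6 months, which carry the receptor on all cells and lack mature T and B cells. Tumour endothelium was taken after 24 h of induction (3 arrays) and without it (2 arrays), and kidney endothelium after 24 h (3 arrays) and without it (3 arrays). The 16.113 tumours also grew in Rag-/- mice, of 3 to 4 months, and were sampled 120 h after transfer of tumour-specific T cells that were IFNγ+/+ (3 arrays) or IFNγ-/- (5 arrays). The labels number the replicates without saying whether each came from its own animal, so that p-values measure the spread between these samples, which may be technical.

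Values are log2 expression values as the authors deposited them. Exact values recurred among the arrays of MCA313 tumours, of J558L tumours, of J558L kidneys and of 16.113 tumours and hardly at all between these 4 sets. For a pair of arrays of one set, between 1.24% and 7.59% of distinct values were found in both, at any probe set. Between sets this was at most 0.0059%. Levels were therefore compared within a set and never between sets. How precise a value is depends on the number of arrays. No measured background was used here, so the 286 probe sets of odorant receptor genes, most of which are known to be silent outside the nose, served to mark a low level. Their 95th percentile lay between 5.93 and 6.43 on 16.113 arrays, 6.06 and 6.46 on MCA313 arrays, 6.34 and 6.90 on J558L kidney arrays and 6.65 and 6.79 on J558L tumour arrays. Pecam1, the gene of the CD31 antigen used in the sort, had group means between 13.51 and 13.95.

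The bases in front of the Alox12 start are shown because its probe sets moved together in kidney endothelium, and GAS and ISRE elements are known from the promoters of many IFNγ-induced genes. The sequence, from RefSeq (GRCm38.p6), covers the 250 bases before the annotated start at chr11:70255371-70255620 on the minus strand.
Alox12 upstream: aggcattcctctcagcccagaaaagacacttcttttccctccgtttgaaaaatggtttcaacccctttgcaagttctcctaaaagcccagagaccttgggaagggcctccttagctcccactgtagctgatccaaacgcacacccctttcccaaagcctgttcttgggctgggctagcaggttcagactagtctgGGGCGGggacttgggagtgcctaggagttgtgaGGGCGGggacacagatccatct
Capitals mark 2 matches to the GC box GGGCGG, the letters bound by SP1-type factors, whose first bases lie 55 and 22 bases before the start. Searched on both strands in a window of 300 bases (250 before and 50 after the start), Alox12 held no match to the GAS core TTCNNNGAA or to a shortened ISRE core, GAAANNGAA, and neither did Alox8 and Alox12b, the other members whose promoters were in the table. Of all 32817 promoter windows 8.29% held the GAS core, 8.55% the shortened ISRE core and 35.6% a GC box. The GC box was added to the search after the sequence had been seen. In the 300 bases it matched 3 times in Alox12, 3 times in Alox12b and 1 time each in Alox8 and Alox12e, so it is not particular to Alox12. No match says only that these letters are not in this window.

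Alox12 had more probe sets at a clear level than the other members. Of its 16 probe sets, 13 were above the odorant receptor 95th percentile in at least 13 of the 26 arrays, 5 of them in all 26, and none stayed below it throughout. Of the 63 probe sets of the other 4 genes, 10 were above it in at least 13 arrays, none in all 26, and 35 in no array. These were 3 of 16 for Alox15, 2 of 14 for Alox8, 3 of 18 for Alox12b and 2 of 15 for Aloxe3. For the other 4 genes, most probe sets were thus read at a level at which odorant receptor genes are read too.

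**Figure D1:**
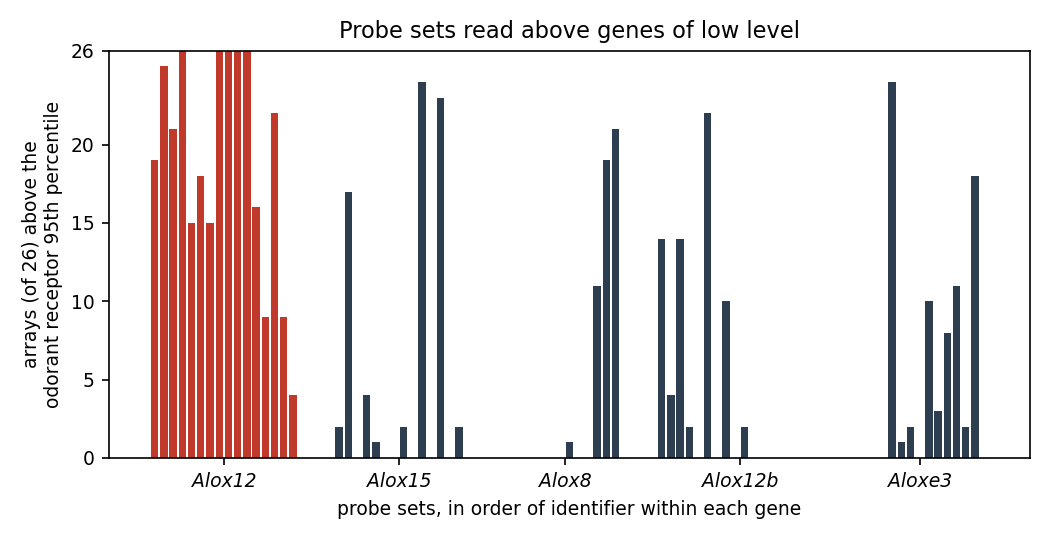
Number of the 26 arrays (y axis) in which each probe set (bars, in order of identifier within a gene) exceeded the array's 95th percentile of odorant receptor probe sets. Alox12 (red) has 5 bars at 26 and no empty place, whereas 35 of the 63 probe sets of the other 4 genes (dark) have no bar.

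The comparison of kidney endothelium asked what IFNγ released by a distant tumour does to endothelium outside it. Alox12, represented by its brightest probe set (17265205), had log2 levels of 12.78, 12.83 and 12.59 after 24 h of IFNγ-GFP, against 10.40, 11.32 and 11.44 in kidneys without induction. The 3 arrays at 24 h lay above all 3 arrays at 0 h, with a smaller spread (12.73 ± 0.13 against 11.06 ± 0.57, mean ± SD, n = 3 each). The rise of 1.68 ± 0.34, 3.19-fold, passed the test (limma's moderated test, adjusted p = 0.0069 over the 4386 genes tested). It was the only one of the 5 genes to pass, where 3.17% of all genes tested passed in this comparison. Alox12 stayed past the test without each of the 6 kidney arrays in turn, at 1.35 to 1.87 with adjusted p up to 0.0478. With the spread estimated from the 6 kidney arrays alone the adjusted p was 0.0532.

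All 16 Alox12 probe sets were higher in kidney endothelium at 24 h, against 47.5% of all probe sets. Their changes were 1.34 to 2.69 with a median of 1.83, where the median of all probe sets was -0.03. In all 16 every array at 24 h lay above every array at 0 h, against 7.62% of all probe sets. Here and below, the probe sets of Alox12 read 1 gene on the same arrays, so their counts are not 16 independent results. In the fit of all 53857 probe sets 7 of the 16 passed the test as higher, against 0.451% of all. Probe set 17265204 had the lowest adjusted p among them (1.82 ± 0.30, adjusted p = 0.0041 in limma). Probe set 17265209 gave 9.27 ± 0.28 at 24 h and 6.67 ± 1.13 at 0 h (SD, n = 3 each), a rise of 2.61 ± 0.62. Sorted cells were measured in bulk, so that a change in the mix of cells and a change in RNA per cell cannot be told apart.

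Platelet genes were looked at beside this result because platelets are known for Alox12 and can adhere to endothelial cells. Of 16 platelet and megakaryocyte markers 3 had a probe set among the deposited values, and 2 of these passed the filter on level and were tested. These 2 were Itga2b and Itgb3, the integrin chains of the fibrinogen receptor, of which Itgb3 is also made by endothelial cells. Neither passed the test in any of the 5 comparisons with a control group. The log2 of their summed level was 11.56 to 11.75 in kidney at 24 h and 12.05 to 12.14 at 0 h. Itga2b, the more platelet-restricted of the pair, changed there by 0.25 and Itgb3 by -0.60 ± 0.17 (limma, adjusted p = 0.0612). The other platelet markers of the list had no probe set here or did not pass the filter on level. The part of platelets in the Alox12 values was not tested. Other marker sums whose kidney groups did not overlap were those of 5 fibroblast and mural genes (12.22 to 12.53 at 24 h, 12.55 to 12.61 at 0 h), 5 keratinocyte genes (9.39 to 9.67 at 24 h, 9.77 to 9.78 at 0 h) and 3 plasma cell genes (13.65 to 13.75 at 24 h, 13.47 to 13.63 at 0 h). Their part was not tested.

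The MCA313 comparisons asked what IFNγ does to tumour endothelium when endothelial cells alone can sense it. Alox12 had log2 levels of 8.72, 9.92 and 9.57 at 0 h, 10.98 and 10.82 at 24 h, and 10.71 and 10.06 at 48 h. All arrays at 24 h and at 48 h lay above the 3 arrays at 0 h, and the array at 0 h nearest to them was replicate 2. The change at 24 h was 1.50 ± 0.38, 2.82-fold, with adjusted p = 0.0728 (limma), and at 48 h it was 0.98 ± 0.38, 1.97-fold, with adjusted p = 0.253. Of the 5 genes 0 passed at 24 h and 0 at 48 h, where 0.684% and 1.37% of all genes passed, and Alox12 alone had an unadjusted p under 0.05 at each time, as did 10.9% and 12.8% of all genes. With 1 array left out the change at 24 h ran from 1.15, without replicate 1 at 0 h, to 1.75, without replicate 2 at 0 h, and adjusted p in limma ran from 0.0435, also without replicate 2 at 0 h and the only value under 0.05, to 0.4401. The change at 48 h ran from 0.64, without replicate 1 at 0 h, to 1.30, without replicate 2 at 48 h, with adjusted p from 0.157 to 0.8669. The level at 48 h differed from that at 24 h by -0.52 ± 0.42 and did not pass the test (limma, adjusted p = 0.9995), although both arrays at 48 h lay below both at 24 h. In that comparison 0 of the 5 genes and 0.0684% of all genes passed, and Aloxe3 alone had an unadjusted p under 0.05, as did 3.78% of all genes.

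At 24 h all 16 Alox12 probe sets were higher than at 0 h in MCA313 tumours, by 0.23 to 2.03 with a median of 1.10, and 45.3% of all probe sets were higher. In 10 of the 16 both arrays lay above the 3 arrays at 0 h, against 10.9% of all probe sets. At 48 h 12 were higher and 4 lower, from -0.48 to 1.70 with a median of 0.82, where 45.7% of all were higher. Of the 16, 7 had both arrays above all 0 h arrays, against 11.5% of all. The 4 that were lower at 48 h were 17265201, 17265202, 17265209 and 17265210. The last of these was read low, at 3.68 ± 0.48 (SD, n = 3) at 0 h, 4.13 ± 0.67 at 24 h and 3.20 ± 0.55 at 48 h (SD, n = 2 each). No single Alox12 probe set passed the test at 24 h (0.0966% of all passed) or at 48 h (0.195%), and 5 and 6 had an unadjusted p under 0.05 in limma, against 8.51% and 9.19% of all probe sets.

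The 16.113 comparison asked what IFNγ made by T cells does to tumour endothelium. Alox12 had log2 levels of 9.21, 8.25 and 8.74 after transfer of IFNγ+/+ T cells. After transfer of IFNγ-/- T cells the levels were 7.97, 7.62, 8.80, 7.90 and 7.99. The groups overlapped because replicate 3 of the IFNγ-/- group stood at 8.80, above 2 of the 3 arrays of the IFNγ+/+ group. The difference was 0.68 ± 0.30, 1.60-fold, and did not pass the test (limma, adjusted p = 0.198). Of the 5 genes 0 passed, where 7.36% of all genes passed. Alox12 alone of the 5 had an unadjusted p under 0.05, as did 21.5% of all genes, so 1 of 5 is near the background. With 1 of the 8 arrays left out the difference ran from 0.44, without replicate 1 of the IFNγ+/+ group, to 0.92, without its replicate 2, and adjusted p from 0.0948 to 0.4447 in limma.

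With IFNγ+/+ T cells 15 of the 16 Alox12 probe sets were higher, against 47.1% of all probe sets. The median was 0.75, and 17265202 differed by -0.10. The median level over the 16 probe sets was 5.03 to 5.95 per array with IFNγ-/- T cells. In each of these arrays it lay below the odorant receptor 95th percentile. With IFNγ+/+ T cells it was 7.05, 5.46 and 6.89, of which replicate 2 (5.46) lay below. Probe set 17265205 was above that percentile in every array. The low level of the others limits what their differences show. In 2 of the 16 the groups did not overlap, against 2.68% of all probe sets. None passed the test, where 2.28% of all probe sets passed, and 6 had an unadjusted p under 0.05 in limma, against 15.0% of all. The largest difference was 1.44 at probe set 17265201.

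In J558L tumours, the contrast in which the change of Alox12 was already known, its log2 levels were 10.61, 11.05 and 10.85 after 24 h of IFNγ-GFP and 9.32 and 8.71 without induction. The difference was 1.82, 3.53-fold. All 16 probe sets were higher, by 0.67 to 2.81 with a median of 1.69, where 47.1% of all probe sets were higher. In 13 the groups did not overlap, where 11.5% of all probe sets had every array at 24 h above every array at 0 h. Of the 5 genes 1 was past the threshold and of all genes 0.547%. Because the gene was selected with this contrast known, nothing is read from these shares. Tumour and kidney endothelium of J558L-bearing mice were measured on separate arrays, but the labels do not say whether both came from the same mice, so the kidney result may not be independent of this contrast.

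**Figure D2:**
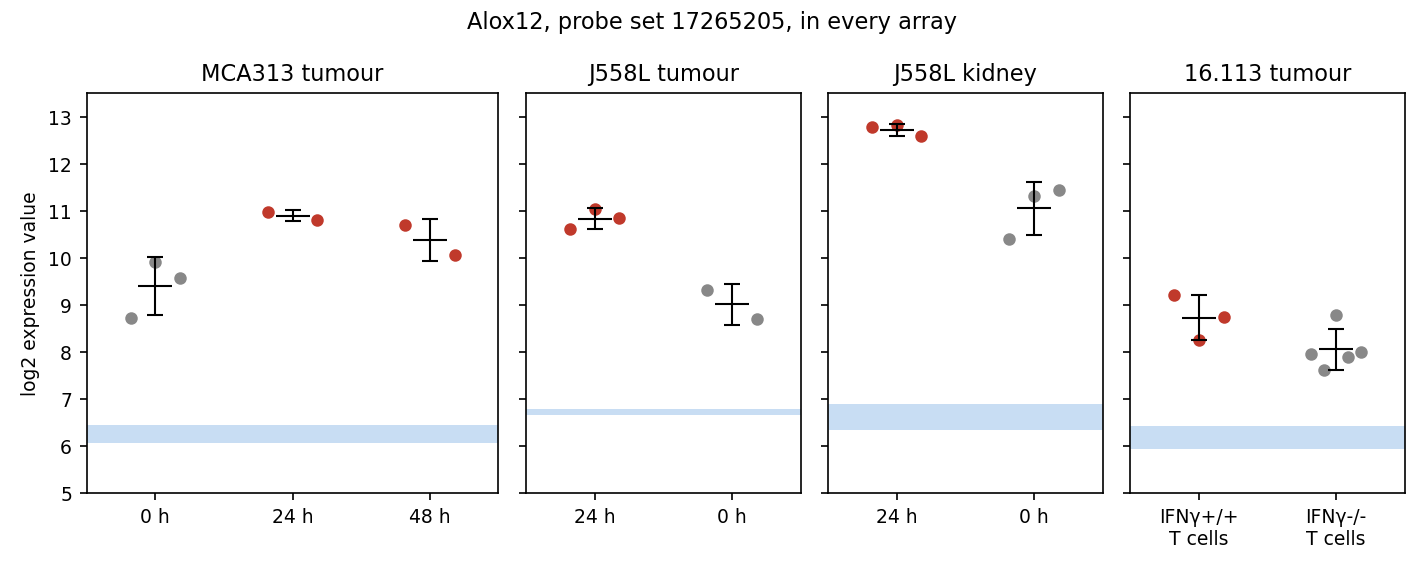
Log2 expression value of Alox12 (probe set 17265205, y axis) in every array of the 9 groups, one panel per separately normalized set. Points are arrays (red, with IFNγ, grey, control), bars are means ± SD, and the blue band is the range of the odorant receptor 95th percentile over the arrays of the set. Kidney arrays at 24 h sit between 12.59 and 12.83 and those at 0 h between 10.40 and 11.44, whereas the 16.113 groups overlap.

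The size of the Alox12 change was compared between models that share no array and leave out the J558L tumour. Every pair of these models also differs in tumour line and in separately normalized set. Some pairs differ in tissue, mouse genotype, age, hours of exposure and kind of control. A difference in the change therefore cannot be assigned to the source of IFNγ or to any other of these. The change in MCA313 at 24 h minus that in kidney was -0.18 ± 0.51 (limma, adjusted p = 0.977). The change in 16.113 minus that in kidney was -1.0001 ± 0.45 (limma, unadjusted p = 0.0396, adjusted p = 0.372), and that in 16.113 minus that in MCA313 at 24 h was -0.82 ± 0.49 (adjusted p = 0.732). Of the 5 genes 0 passed in each, where 0.137%, 0.319% and 0.0684% of all genes passed. In the second of the 3, Alox12 and Alox8 had an unadjusted p under 0.05, and in the first and the third none of the 5 had. The shares of all genes under 0.05 were 6.70%, 12.4% and 7.32%.

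**Figure D3:**
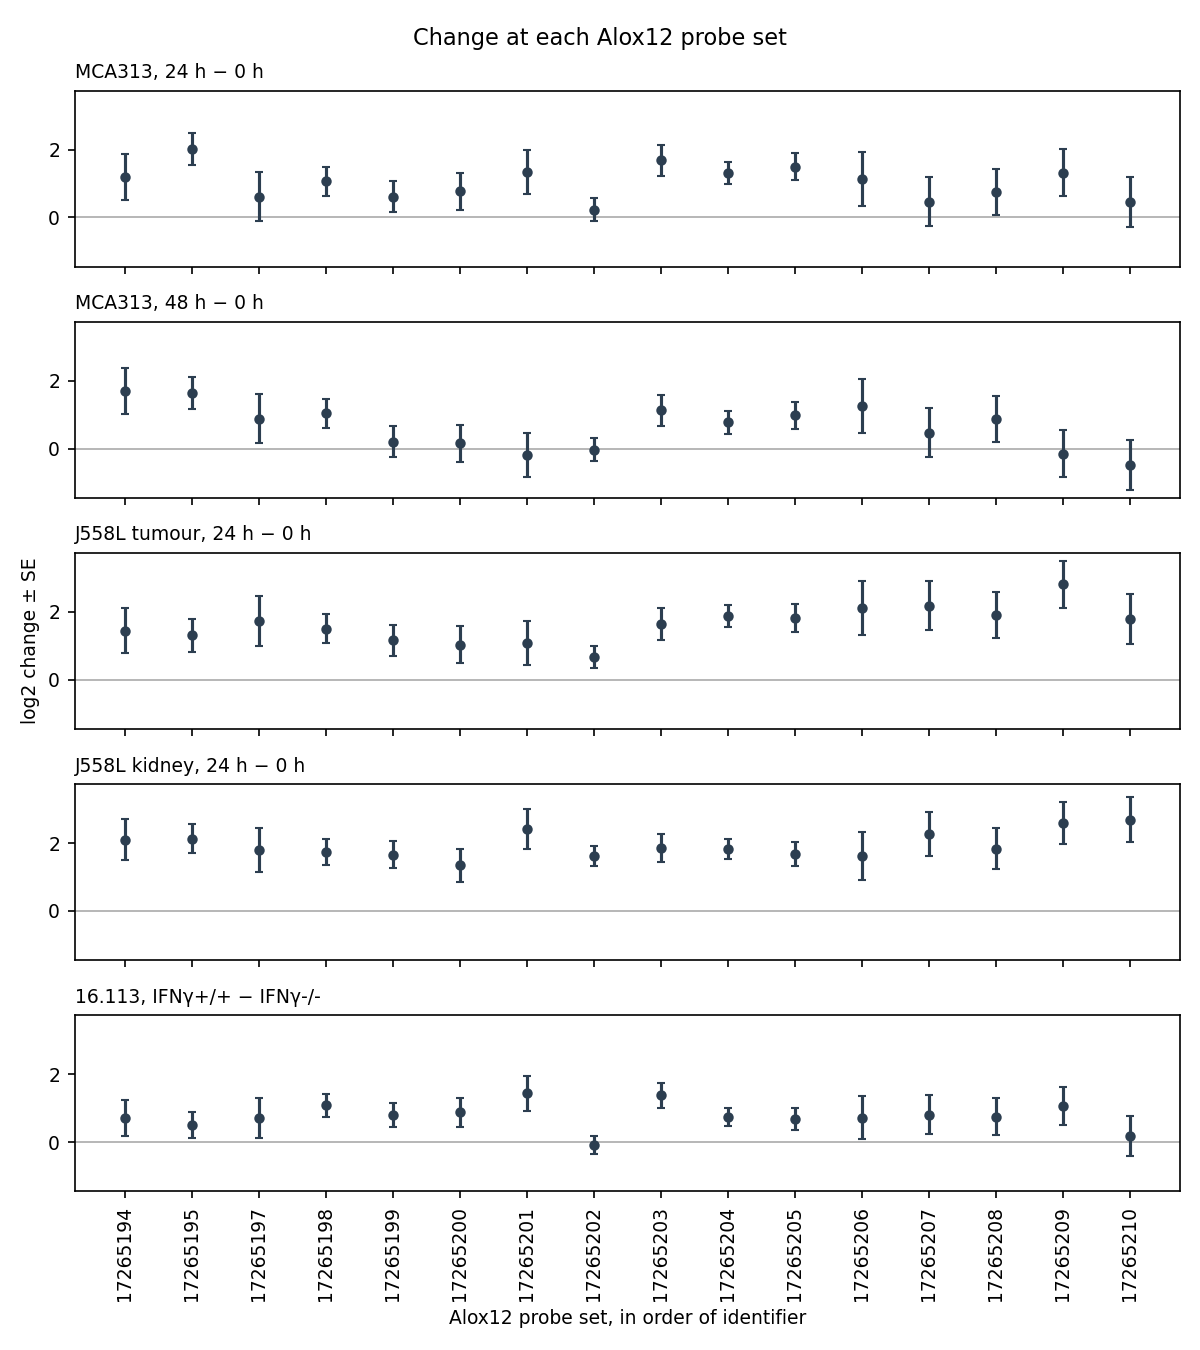
Log2 change with its standard error (y axis) at each of the 16 Alox12 probe sets (x axis, in order of identifier), with one panel per comparison. Kidney changes lie between 1.34 and 2.69, all above 0, those in MCA313 at 48 h spread from -0.48 to 1.70, and probe set 17265202 is near 0 in 16.113.

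Alox15, the leukocyte-type enzyme, did not pass the test in MCA313, kidney or 16.113. Its brightest probe set (17265240) had levels of 7.03, 6.84 and 7.23 in kidney at 24 h and 6.87, 6.74 and 7.50 at 0 h. The change was -0.0011 ± 0.31 (limma, adjusted p = 0.998). In MCA313 tumours it stood at 7.18 ± 0.14 (SD, n = 3) at 0 h, 6.83 ± 0.13 at 24 h and 7.23 ± 0.29 at 48 h (SD, n = 2 each), with changes of -0.35 and 0.05 from 0 h. In 16.113 it stood at 7.82 ± 0.66 with IFNγ+/+ T cells and 7.52 ± 0.31 with IFNγ-/- T cells (SD, n = 3 and 5). Across its 16 probe sets 5, 12, 9 and 7 were higher in MCA313 at 24 h and 48 h, in kidney and in 16.113, against 45.3%, 45.7%, 47.5% and 47.1% of all probe sets.

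In J558L tumours Alox15 had levels of 8.25, 8.18 and 7.24 at 24 h and 6.98 and 6.61 without induction, a difference of 1.10. All arrays at 24 h were above both arrays at 0 h, although replicate 3 was close to them. Of its 16 probe sets 12 were higher and 4 lower, from -1.06 to 2.13 with a median of 1.05, where 47.1% of all were higher. In 8 every array at 24 h lay above both at 0 h, against 11.5% of all, and nothing is read from these shares. Only 3 of these 16 probe sets were above the odorant receptor level in at least 13 arrays. At the other such probe sets, 17265232 and 17265242, the differences were 1.26 and 1.04. Macrophage and eosinophil genes, whose cells are known for Alox15, are given beside this. Of 15 macrophage markers 4 were tested, with a log2 summed level of 10.46 to 10.88 at 24 h and 10.24 to 10.62 at 0 h. Of these 3 were higher, among them Cd68 by 0.62, and 1 was lower, with a median change of 0.19. Of 9 eosinophil markers Epx was tested and differed by 0.01. All 5 fibroblast and mural genes tested were higher in J558L tumours at 24 h, by a median of 0.46, with a log2 summed level of 11.97 to 12.01 at 24 h and 11.59 to 11.69 at 0 h. Of 5 endothelial genes 4 were lower, with a summed level of 15.15 to 15.27 at 24 h and 15.46 to 15.48 at 0 h. Both genes tested of the T cell list were lower, with 7.83 to 8.29 at 24 h and 8.59 to 8.66 at 0 h. As these Rag-/- mice lack mature T cells, these 2 genes do not give a share of such cells here. The part of these lists in the Alox12 and Alox15 values of J558L tumours was not tested.

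Alox8 was read near the odorant receptor level in most groups. Its brightest probe set (17264536) had levels of 6.92, 7.02 and 7.19 in kidney at 24 h and 6.37, 6.31 and 6.69 at 0 h. The kidney groups did not overlap, and the change was 0.59 ± 0.23 (limma, unadjusted p = 0.0196, adjusted p = 0.229). In kidney 13.7% of all genes had an unadjusted p under 0.05. Of the 14 Alox8 probe sets 9 were higher and 5 lower in kidney, with a median of 0.28, where 47.5% of all were higher. In 1 every array at 24 h lay above all at 0 h, against 7.62% of all, which is at the background. In the J558L tumour the same probe set ran the other way, with 7.30, 7.27 and 7.02 at 24 h and 7.40 and 7.68 at 0 h. In MCA313 it stood at 6.07 ± 0.40 (SD, n = 3) at 0 h, 6.41 ± 0.16 at 24 h and 6.28 ± 0.51 at 48 h (SD, n = 2 each). In 16.113 it stood at 6.37 ± 0.41 with IFNγ+/+ T cells and 6.57 ± 0.21 with IFNγ-/- T cells (SD, n = 3 and 5).

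Neither gene of the epidermal pair passed the test. Alox12b (probe set 17251589) had levels of 6.43, 6.99 and 7.42 in kidney at 24 h and 7.27, 7.17 and 6.35 at 0 h, a change of 0.02 ± 0.34. In MCA313 its means were 6.38 ± 0.28 (SD, n = 3) at 0 h, 6.60 ± 0.32 at 24 h and 7.09 ± 0.48 at 48 h (SD, n = 2 each), and the change at 48 h was 0.71 ± 0.38 (limma, adjusted p = 0.462). In J558L tumours it stood at 7.19 ± 0.16 at 24 h and 7.37 ± 0.06 at 0 h (SD, n = 3 and 2). In 16.113 it stood at 6.54 ± 0.33 with IFNγ+/+ T cells and 6.53 ± 0.59 with IFNγ-/- T cells (SD, n = 3 and 5).

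Aloxe3 (probe set 17251571) varied widely between replicates. Its levels in MCA313 were 7.50, 6.00 and 7.22 at 0 h, 8.06 and 7.31 at 24 h, and 5.32 and 6.97 at 48 h. The level at 48 h differed from that at 24 h by -1.54 ± 0.71 (limma, unadjusted p = 0.0418, adjusted p = 0.9995). In kidney it stood at 7.47 ± 0.18 at 24 h and 7.94 ± 0.80 at 0 h (SD, n = 3 each), a change of -0.47 ± 0.58. In the J558L tumour it had 8.64, 8.67 and 8.38 at 24 h, and 7.36 and 9.13 at 0 h, so the 2 control arrays lay on either side of the treated ones. In 16.113 it had 7.88, 7.54 and 7.22 with IFNγ+/+ T cells, and 7.78, 8.16, 7.95, 9.88 and 7.40 with IFNγ-/- T cells. Replicate 4 of the IFNγ-/- group was the highest of the 8 arrays of 16.113 tumours.

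Of the 63 probe sets of Alox15, Alox8, Alox12b and Aloxe3, none passed the test in MCA313 at 24 h or 48 h, in kidney or in 16.113, where 0.0966%, 0.195%, 0.863% and 2.28% of all probe sets passed. In limma 3, 2, 8 and 4 of the 63 had an unadjusted p under 0.05, against 8.51%, 9.19%, 10.1% and 15.0% of all probe sets, so these counts are near or below the background. The medians over the probe sets of each of these genes lay between -0.29 and 0.40 in those 4 comparisons. Single probe sets ran wider. Those of Alox12b ran from -0.91 to 1.45 and from -0.47 to 2.46 in MCA313 at 24 h and 48 h. In kidney they ran from -2.25 to 0.85 and in 16.113 from -0.47 to 1.37. Those of Aloxe3 ran from -0.42 to 1.88 and from -0.87 to 1.20 in MCA313. In kidney they ran from -1.31 to 1.09 and in 16.113 from -2.38 to 0.80.

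**Figure D4:**
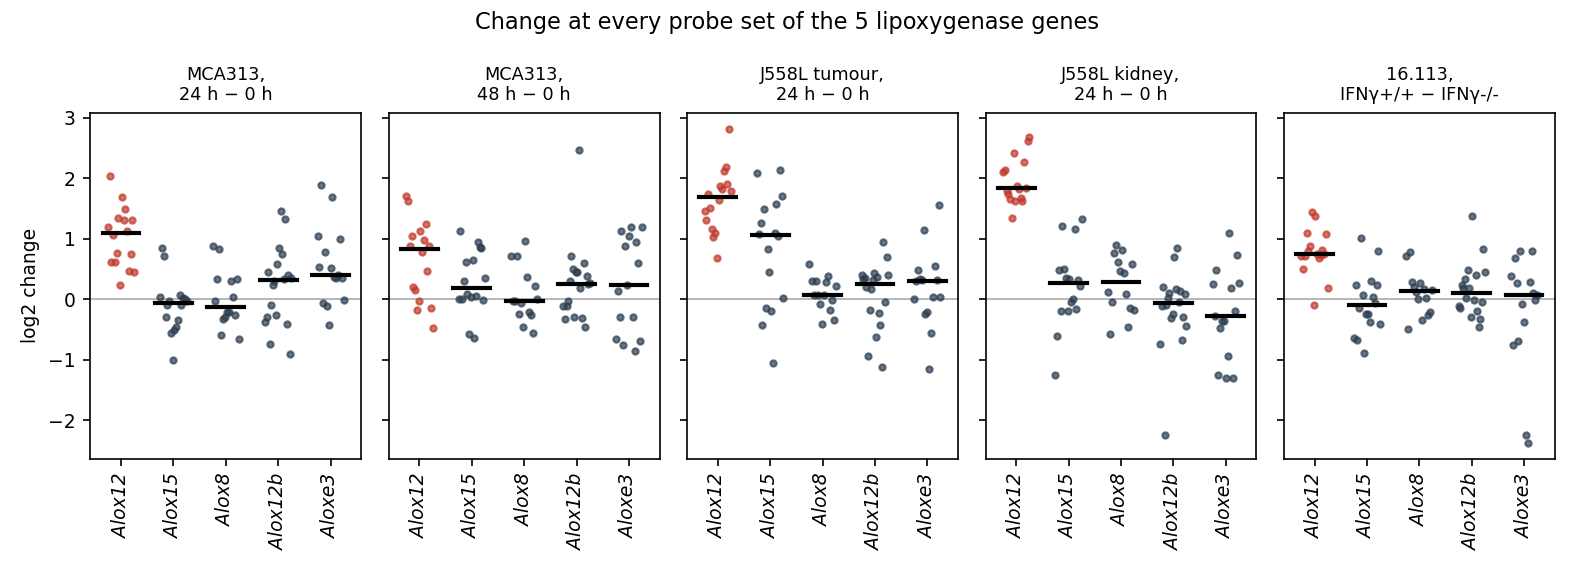
Log2 change (y axis) at every probe set of the 5 genes (points) in the 5 comparisons with a control group, with the median of each gene as a bar. Alox12 (red) has medians of 1.10, 0.82, 1.69, 1.83 and 0.75 from left to right, and the median of Alox15 in J558L tumours is 1.05.

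The protein-coding genes next to the members on the chromosome were read in the same fit. Rnasek, a ribonuclease gene next to Alox12, changed by 0.15 ± 0.16 in kidney, by 0.24 and 0.34 in MCA313 at 24 h and 48 h, by -0.0024 in J558L tumours and by -0.10 in 16.113. Alox12e, on its other side, had changes of 0.30, 0.26, 0.03, -0.08 and 0.01 in MCA313 at 24 h and 48 h, J558L tumour, kidney and 16.113. Neither passed the test in any of these. Of the other neighbours, Per1, a component of the circadian clock near Aloxe3, fell in kidney by 0.93 ± 0.17 (limma, adjusted p = 0.0037). 0610010K14Rik, Pelp1, Arrb2, Hes7, Gucy2e and Cntrob did not pass in any of the 5 comparisons.

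Among the 4386 genes tested, those whose pattern was most like that of Alox12 were found by the root mean square difference over all 26 arrays. Each set was first centred on its control mean. They were Gm2427 at 0.39, the odorant receptor gene Olfr9 at 0.46, Rab3ip at 0.49, Nampt at 0.51 and Slfn2 at 0.53 log2 units. The median over all genes was 1.13. Rab3ip encodes an exchange factor for the GTPase Rab8, Nampt the enzyme that starts NAD salvage, and Slfn2 a Schlafen family protein of lymphocytes and other cells. In kidney Gm2427 changed by 1.28, Olfr9 by 1.33, Rab3ip by 2.06, Nampt by 1.62 and Slfn2 by 0.83. In 16.113 the same genes changed by 0.77, 0.95, 0.56, 1.39 and 0.88. These genes were selected for likeness in the same arrays, so that their changes are a description. Olfr9 is also among the odorant receptor genes used to mark a low level, so that reference includes a gene whose values differed between groups.

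Of 84 further genes of oxylipin metabolism and signalling 22 had a probe set among the deposited values and 21 were tested. Among the 5 leukotriene synthesis genes Mgst3, a microsomal glutathione transferase, fell in kidney, with 9.40 ± 0.26 at 24 h and 10.62 ± 0.10 at 0 h (SD, n = 3 each), a change of -1.22 ± 0.23 (limma, adjusted p = 0.0045). No other of the 21 passed in any of the 5 comparisons. Among the 4 genes for release and re-esterification of fatty acids, Pla2g4a, the cytosolic phospholipase A2 that frees arachidonic acid for these enzymes, had positive changes in all 5, of 1.61 ± 0.58 and 0.35 ± 0.58 in MCA313 at 24 h and 48 h, 0.92 ± 0.58 in J558L tumour, 1.18 ± 0.52 in kidney and 1.04 ± 0.46 in 16.113. None of these passed (adjusted p between 0.196 and 0.882 in limma). The acyl-CoA synthetase gene Acsl6 ran from -0.99 to -0.08.

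Of the 3 prostanoid genes, the cyclooxygenase gene Ptgs2 ran from -0.51 to 0.75 and Ptges3 from -0.41 to 0.60. Of the 3 genes for epoxides and hydroperoxides, the epoxide hydrolase gene Ephx1 ran from -1.29 to 0.27 and the glutathione peroxidase gene Gpx3 from -0.73 to 0.84. Of the 2 oxylipin receptors, the thromboxane receptor gene Tbxa2r had negative changes in all 5, of -1.29 ± 0.34 in MCA313 at 48 h (limma, adjusted p = 0.0605) and -0.92 ± 0.30 in kidney (adjusted p = 0.120), and Gpr132 ran from -0.43 to 0.67. The 3 barrier genes that act with Alox12b and Aloxe3 in skin had changes between -0.65 and 0.52, with Sdr9c7 and Nipal4 the widest.

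Markers of cells that could accompany sorted endothelial cells were read in the same fit. Of 127 listed markers in 11 lists 33 had a probe set among the deposited values and 29 were tested, and the kidney tubule list had none there. Of the 5 endothelial genes Sele, the E-selectin gene, fell in MCA313 at 48 h by 2.24 ± 0.49 (limma, adjusted p = 0.0249), and no endothelial gene passed in the other comparisons. In 16.113 the keratinocyte gene Krt14 fell by 2.13 ± 0.53 and Sdc1, a plasma cell gene also made by epithelia, by 0.94 ± 0.27 with IFNγ+/+ T cells (limma, adjusted p = 0.0158 and 0.0392). None of the platelet, macrophage, eosinophil, T cell, leukocyte, erythroid or fibroblast and mural markers passed in any comparison. Some log2 summed levels still did not overlap. In MCA313 the macrophage sum was 9.67 to 9.72 at 24 h and 9.03 to 9.58 at 0 h. At 48 h the endothelial sum was 14.93 to 14.94 (15.01 to 15.15 at 0 h) and the platelet sum 13.08 to 13.27 (13.28 to 13.43 at 0 h). In 16.113 the plasma cell sum was 13.17 to 13.33 with IFNγ+/+ and 13.36 to 13.58 with IFNγ-/- T cells. Their part was not tested. The log2 summed level of the 5 keratinocyte genes was 9.32 to 9.95 with IFNγ+/+ T cells and 9.43 to 10.10 with IFNγ-/- T cells, and their part in the Alox12b and Aloxe3 values was not tested.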

How the data were processed

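Per the labels' protocols, the WT Pico kit served to amplify the RNA. The authors deposited 1 normalized log2 value for each probe set and array. The submitters' processing notes name Affymetrix Expression Console and limma; the normalization and the genome build were not given in the sources used here. Of 65535 probe sets in the table, 766 with several gene symbols and 10912 without one were left out. The genes covered lay mostly on a few chromosomes, as given at the start of the Results. A gene was represented by its probe set with the highest mean over 26 arrays, and was tested if this exceeded the array's 50th percentile in at least 2 arrays (4386 genes, all 5 members among them). Means of the 9 groups were fitted with limma 3.58.1 in R 4.3.3. Tests were moderated and two-sided, and p-values were adjusted by Benjamini-Hochberg within each of 9 comparisons, with a threshold of 0.05. A second fit took all 53857 single-symbol probe sets without a filter. The procedure was tested on simulated data. Members, lists and tests were chosen with earlier results of these data known. Named genes are all members, their 2 nearest protein-coding genes on each side, the 5 genes most like Alox12, and list members past the test or otherwise up to 2 per list. Alternatives dropped the filter on level or raised it, used quantile normalization, averaged the probe sets of a gene, used a trended and robust variance prior, array weights, a replicate block or only the arrays compared, or left out each array in turn.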

Additional observations from a re-analysis of the deposited data

Results flagged for a closer look

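Of 79 probe sets tested for an array far from the rest in the 16.113 group with IFNγ-/- T cells (5 arrays), 4 had one, and chance flags about 1 in 20. At Alox8 probe set 17264525 replicate 5 stood at 3.79, with the other arrays between 2.17 and 2.57. At Aloxe3 probe set 17251569 replicate 4 stood at 4.89, with the others between 3.35 and 3.64. Replicate 5 was lowest at Aloxe3 probe sets 17251580 (4.90, the others 7.50 to 8.46) and 17251582 (2.87, the others 4.64 to 4.97). Of these, 17251580 alone was read above the odorant receptor level in most arrays.

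In 8 pairs of models all arrays of one lay above their control mean and all arrays of the other below it. The Alox15 change in MCA313 at 24 h minus that in J558L tumours was -1.45. For Alox8 the change in MCA313 at 24 h minus that in J558L tumours was 0.68, and that in J558L tumours minus that in kidney was -0.93. For Alox12b the change in MCA313 at 48 h minus that in J558L tumours was 0.90. For Aloxe3 the change in J558L tumours minus that in kidney was 0.79, and minus that in 16.113 it was 1.01. These 6 differences involve the contrast in which the change of Alox12 was already known and were not tested. For Aloxe3 the change in MCA313 at 24 h minus that in kidney was 1.25 and minus that in 16.113 it was 1.47, and neither difference passed the test (limma, adjusted p = 0.905 and 0.706).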

How the results depend on the processing

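The number of the 5 genes past the test depended on a few settings. In MCA313 at 24 h 1 gene, Alox12, passed with array weights (adjusted p = 0.0475), against 0 in the reported fit, and with 1 array left out the count was 0 to 1, the 1 being without replicate 2 at 0 h. In J558L tumours 2 passed with array weights, Alox12 and Alox15, and 0 in a fit of only the arrays compared and 0 with any 1 array left out, against 1 as reported, so that each of the 5 arrays ended the Alox12 call. That contrast was known when the genes were named, so these counts describe the settings and are no test of Alox12 or Alox15. In kidney 0 passed in the fit of only the arrays compared (Alox12 adjusted p = 0.0532), against 1 as reported. In the other comparisons the count of 0 did not change under these alternatives. The Alox12 change kept its sign in all comparisons with a control group under all alternatives, and in kidney ran from 1.35 to 1.95, the highest with averaged probe sets, where only Alox12 of the 5 genes passed the filter on level and 2854 genes were tested. The stricter filter kept 3 of the 5 among 3135 genes.

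Some changes that were not called turned sign, among them those of Aloxe3 in MCA313 at 48 h (-0.76 as reported) and in J558L tumours (0.32). With quantile normalization of all arrays Alox15 in kidney was 0.0366 and Alox12b in 16.113 minus kidney 0.0161. With array weights these were 0.0283 and 0.0353, Alox12b was -0.0491 in kidney and -0.0138 in 16.113, and Aloxe3 in 16.113 minus kidney was 0.0117. With 1 array left out the ranges that crossed 0 were as follows. Alox12 in MCA313 at 24 h minus kidney ran from -0.52 to 0.15. Alox15 ran from -0.15 to 0.25 in MCA313 at 48 h, -0.15 to 0.23 in kidney, -0.078 to 0.55 in 16.113 and -0.077 to 0.55 in 16.113 minus kidney. Alox8 ran from -0.15 to 0.57 in MCA313 at 48 h, -0.49 to 0.24 in MCA313 at 48 h minus 24 h and -0.40 to 0.0038 in 16.113. Alox12b ran from -0.0013 to 0.46 in MCA313 at 24 h, -0.27 to 0.27 in kidney, -0.17 to 0.24 in 16.113, -0.047 to 0.50 in MCA313 at 24 h minus kidney, -0.26 to 0.29 in 16.113 minus kidney and -0.44 to 0.0146 in 16.113 minus MCA313 at 24 h. Aloxe3 ran from -1.59 to 0.064 in MCA313 at 48 h, -0.57 to 1.20 in J558L tumours and -0.64 to 0.19 in 16.113 minus kidney. The causes were not tested.

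Whether equal replicate numbers pair the samples is not given in the labels. Arrays with the same number had correlations of their deviations from the group means of -0.10 to 0.11 in MCA313, -0.14 to 0.07 in J558L and -0.06 to -0.02 in 16.113. For arrays with different numbers these were -0.11 to 0.10, -0.11 to 0.14 and -0.06 to 0.11. With groups of 2 to 5 arrays such correlations cannot show whether samples came from the same mice. With the replicate number as a block (correlation -0.0534) no count of genes past the test changed, and the Alox12b change in 16.113 minus kidney was 4.02e-04 against -0.0038. Most probe sets of Alox15, Alox8, Alox12b and Aloxe3 lay near the odorant receptor level, which limits what their changes show.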
